A study of Mus musculus with 6 samples.

Results

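The 8 genes described here encode channels that carry potassium, water or cations across glial membranes, and 1 protein that anchors them. They are the water channels Aqp4 and Aqp1, the inwardly rectifying potassium channels Kcnj10 (Kir4.1), Kcnj16 (Kir5.1), Kcnj2 (Kir2.1) and Kcnj13 (Kir7.1), the stretch- and heat-sensitive cation channel Trpv4, and Dtna (alpha-dystrobrevin), a part of the dystrophin-associated complex. They were chosen by symbol, 8 of the 32285 genes in the deposited count tables, and their unique molecular identifiers (UMIs, one per captured RNA molecule) were summed per library over each type of nucleus. Nuclei came from retinas of rd10 mice (strain B6.CXB1-Pde6b-rd10/J), in which a mutation in the rod phosphodiesterase gene Pde6b makes rods and then cones degenerate. All animals carried that mutation and received an intravitreal injection at postnatal day 18, either of saline (3 libraries, replicates 1, 2 and 6) or of 20 ng of interleukin-27 (IL-27, a cytokine that signals through Stat factors, 3 libraries, replicates 4, 5 and 10), and retinas were taken at day 20. No uninjected or wild-type retina was analysed here, so every level below is that of a degenerating, injected retina. The labels do not say how many animals each library holds, so p-values measure the spread between libraries.

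In the retina, Muller glia span the tissue from the vitreous to the photoreceptors. They take up potassium that active neurons release and pass it on, mainly through Kir4.1, while Aqp4 lets water follow, and both channels are concentrated at glial endfeet by the dystrophin complex. Kir5.1 forms channels only with partners such as Kir4.1, Kir7.1 is best known from the retinal pigment epithelium, and Aqp1 passes water in many epithelia. Trpv4 is reported to act as a swelling sensor in Muller glia.

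Each library held 36678332 to 48260748 UMIs. Of 56634 barcodes, 56205 passed quality limits, 4014 were removed as predicted doublets and 52191 were kept. Any pair of libraries shared 18 to 30 barcodes, at most 0.335% of the smaller library. Clustering left the 8 genes and the related genes described further on out of its gene set, and clusters were named from fixed markers. Muller glia held 4637 nuclei (620 to 897 per library), with all 9 Muller markers detected in at least 10% of them. Astrocytes held 293 nuclei (34 to 67 per library), with 5 of 6 markers detected and Pax2 and Pdgfra among the leading genes. All 9 Muller markers were also found in at least 10% of astrocyte nuclei, and summed there to 4345 to 5486 CPM per library, against 2411 to 3130 CPM for the 6 astrocyte markers; their part in the astrocyte levels below was not tested. A cluster of 678 nuclei expressed 6 of 8 ciliary epithelium markers as well as 8 of 9 Muller markers and is called ciliary-like. It held 230, 220 and 106 nuclei in the saline libraries and 12, 6 and 104 in IL-27 replicates 4, 5 and 10, so the Muller glia below do not include it. Values are CPM, the UMIs of a gene scaled to the same total in every type and library, given as mean ± SD over the 6 libraries (5 for ciliary-like nuclei, leaving out IL-27 replicate 5). The type of a nucleus was read from the same RNA, so differences between types are described without a test. A CPM does not follow the number of nuclei, but a different mix of nuclei within a type can move it.

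Genome positions are from GENCODE M21 on GRCm38. Aqp4 lies at chr18:15389496-15410982 (minus strand) and overlaps the antisense gene AC133525.2, and Dtna lies at chr18:23415135-23659715 (plus strand) and overlaps the antisense gene Gm47898. Kcnj10 (chr1:172341210-172374085, plus strand), Trpv4 (chr5:114622152-114658421, minus strand) and Aqp1 (chr6:55336432-55348555, plus strand) overlap no other gene. Kcnj16 (chr11:110968033-111027968) and Kcnj2 (chr11:111066164-111076821) are neighbours on the plus strand, 38195 bases apart. Kcnj13 (chr1:87386363-87394729, minus strand) lies inside Gigyf2, which is transcribed from the opposite strand.

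The water channel Aqp4 was highest in Muller glia. Its level there was 533, 583 and 583 CPM in saline replicates 1, 2 and 6, and 546, 581 and 511 CPM in IL-27 replicates 4, 5 and 10. The lowest Muller value was above every value of any other type. Ciliary-like nuclei came next at 95.7 ± 44.6 CPM (SD, n = 5), with a range of 28.6 to 141, and Muller glia exceeded them 4.14- to 19.1-fold in all 5 libraries. Rods gave 49.5 ± 6.07 CPM and retinal astrocytes 17.8 ± 10.5 CPM, from 20 UMIs in all. Muller glia thus held 31.2-fold the mean astrocyte level.

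Because nuclei differ in depth (median 4438 UMIs in Muller glia, 3760 in astrocytes and 1266 in rods), each nucleus was also thinned to 1000 UMIs, leaving out shallower nuclei. Of 4628 Muller nuclei, 40.4% then held an Aqp4 UMI (exact 95% interval 38.9 to 41.8%, counting error only), and 82.4% did without thinning. The share was 11.3% in ciliary-like nuclei (8.99 to 13.9%), 4.12% in rods (3.76 to 4.50%) and 0.346% in astrocytes (0.00876 to 1.91%). Rods are not known to make Aqp4 and give the share that others are set against. They are a high reference among neurons. The median of the 9 Muller markers was at 24.2% of its Muller level in rods, 5.69% in amacrine cells and 3.41% in ganglion cells. Aqp4 itself was 14.5 CPM in amacrine cells and 7.84 CPM in ganglion cells. The astrocyte share and level of Aqp4 were below those of rods, so they are not read as expression at this depth, while the ciliary-like share exceeded the rod share. The part of free RNA in these values was not tested.

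Aqp1, the other water channel, had a different pattern. Rods held 31.2, 27.5 and 30.4 CPM in the saline libraries and 32.3, 33.2 and 28.1 CPM in the IL-27 libraries, from 572 UMIs. Cones held 3.64 ± 1.49 CPM and Muller glia 1.71 ± 0.217 CPM, so rods exceeded cones 8.37-fold and Muller glia 17.8-fold. After thinning, 2.69% of rods (2.40 to 3.01%) and 0.365% of cones (0.189 to 0.637%) held an Aqp1 UMI. Endothelial nuclei gave 17.0 ± 31.8 CPM, from 9 UMIs of which 7 were in IL-27 replicate 10, so their order against rods cannot be read. Among the 12 clusters of amacrine nuclei, in which, as for every single cluster below, nuclei of any depth were kept, the highest level was in the cluster led by Vip and Nox4 (10.3 ± 4.27 CPM), picked after its value was seen.

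**Figure D1:**
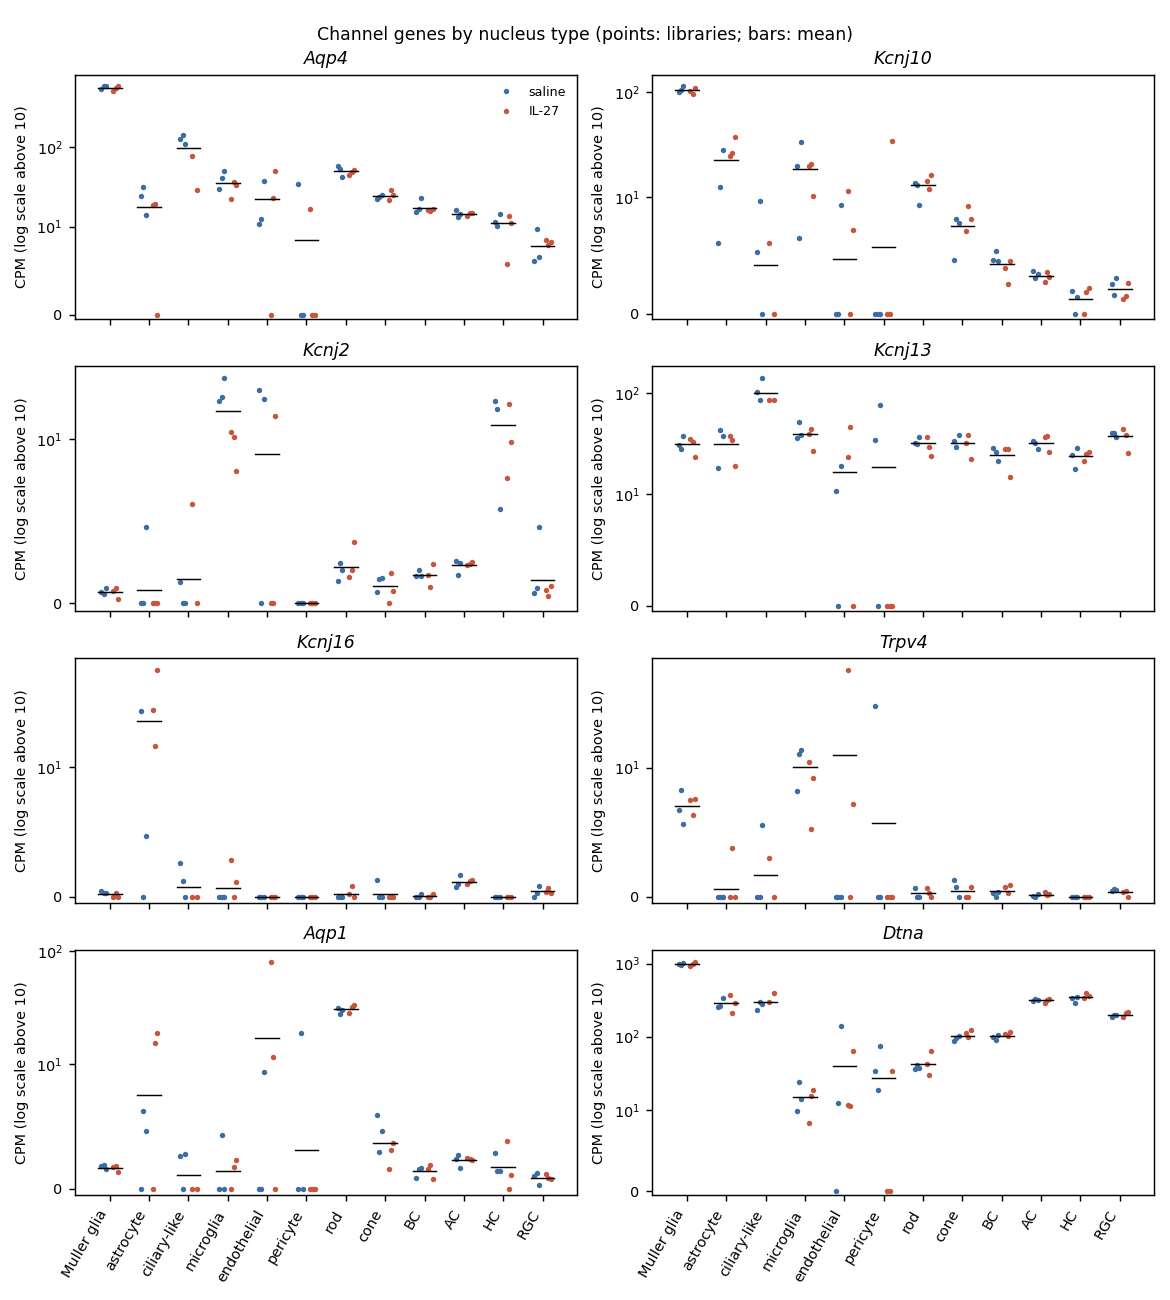
Level of each of the 8 genes (CPM, linear up to 10 and logarithmic above) in 12 types of nuclei (BC bipolar, AC amacrine, HC horizontal and RGC ganglion cells). Each point is a library, blue for saline and red for IL-27, and the bar is the mean; Aqp4, Kcnj10 and Dtna peak in Muller glia, Kcnj13 in ciliary-like nuclei and Kcnj16 in astrocytes, while Aqp1 is high in rods and in 1 endothelial library.

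Dtna, which links the dystrophin complex to syntrophins, was also highest in Muller glia, at 984 ± 47.9 CPM (921 to 1057). Several neurons also held it. Horizontal cells gave 344 ± 35.4 CPM, amacrine cells 314 ± 13.3, ciliary-like nuclei 302 ± 61.4, astrocytes 288 ± 56.4 and ganglion cells 200 ± 11.4. The first 4 of these did not differ beyond their spread, although horizontal cells were above amacrine cells in 5 of 6 libraries. Bipolar cells and cones both held 104 CPM, rods 41.8 ± 11.4 CPM and microglia 15.1 ± 5.64 CPM, or 39.6 ± 18.5 CPM with microglial nuclei of outlying depth kept. After thinning, 61.1% of Muller nuclei (59.7 to 62.5%) and 23.9% of astrocyte nuclei (19.1 to 29.2%) held a UMI. Amacrine nuclei were uneven, since the cluster led by Tshr and Olfm3, picked after its value was seen, held 846 ± 44.7 CPM.

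The channel Kcnj10 followed Aqp4 in Muller glia. Its level was 101, 105 and 115 CPM in the saline libraries and 97.2, 111 and 103 CPM in IL-27 replicates 4, 5 and 10, and no library of another type reached these values. Astrocytes gave 22.6 ± 11.4 CPM from 26 UMIs, microglia 18.4 ± 9.37, rods 13.1 ± 2.30 and ciliary-like nuclei 4.21 ± 4.19. Muller glia exceeded astrocytes 4.67-fold on the means and 2.96- to 16.7-fold within libraries. Thinned shares were 10.3% in Muller glia (9.42 to 11.2%), 1.73% in astrocytes (0.564 to 3.99%), 1.13% in rods (0.946 to 1.35%) and 0.593% in ciliary-like nuclei (0.162 to 1.51%). The astrocyte interval includes the rod share, so Kcnj10 in astrocytes could not be told from rods at this depth. It was above amacrine cells (3.25 CPM) in 6 of 6 libraries, by 1.64- to 12.0-fold, while Aqp4 in astrocytes was above amacrine cells (14.5 CPM) in 4 of 6. The UMIs of Aqp4 per UMI of Kcnj10 (ratio of the mean levels) were 5.28 in Muller glia, 3.78 in rods, 0.789 in astrocytes and 22.7 in ciliary-like nuclei. The ciliary-like ratio rests on 14 UMIs of Kcnj10, with 2 of 5 libraries at 0, and with nuclei of any depth in all 6 libraries the cluster held 338 UMIs of Aqp4 and 26 of Kcnj10, a lower ratio. The astrocyte ratio also rests on few UMIs and was not the same in both groups, with 12 UMIs of Aqp4 against 9 of Kcnj10 after saline but 8 against 17 after IL-27. Ciliary-like nuclei held Aqp4 above the mean rod level in 4 of 5 libraries (not in IL-27 replicate 4). Their Kcnj10 could not be told from that of rods at this depth, since the thinned interval includes the rod share and, with nuclei of any depth kept, the level was 11.8 ± 12.2 CPM, against 13.0 ± 2.07 CPM in rods.

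Within Muller glia, nuclei with and without an Aqp4 UMI held Kcnj10 at nearly the same rate. Of thinned Muller nuclei with an Aqp4 UMI, 10.7% also held a Kcnj10 UMI, against 10.0% of those without one. This is a count over nuclei of all libraries and was not tested.

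Kcnj16, the Kir4.1 partner, was nearly absent from Muller glia, with 5 UMIs in 6 libraries (0.225 ± 0.187 CPM). In astrocytes it had 26 UMIs. These were 30.3, 0 and 4.66 CPM in saline replicates 1, 2 and 6, and 15.3, 68.7 and 31.2 CPM in IL-27 replicates 4, 5 and 10, and the groups overlapped. The count of 0 in saline replicate 2 allows up to 18.6 CPM. After thinning, 2.42% of astrocyte nuclei (0.979 to 4.93%) held a Kcnj16 UMI, against 0.0266% of rods (0.00548 to 0.0776%) and 0.0216% of Muller glia (0.000547 to 0.120%). Amacrine cells held 1.14 ± 0.315 CPM. The cluster of them led by Mei1 and Fgf10, with nuclei of any depth kept, held 46 UMIs (4.80 ± 1.01 CPM) and was picked after its value was seen. Horizontal, endothelial and pericyte nuclei had none.

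Kcnj13 was highest in ciliary-like nuclei. Its level was 101, 84.9 and 142 CPM in saline replicates 1, 2 and 6, and 85.8 and 85.0 CPM in IL-27 replicates 4 and 10, each above every value of the other types. The means of the other 11 types lay between 16.4 and 39.3 CPM, and Muller glia gave 31.0 ± 5.28 CPM. Thinned shares were 9.50% in ciliary-like nuclei (7.39 to 12.0%) and 3.04% in rods (2.73 to 3.37%). Gigyf2, within which Kcnj13 lies, ranged from 188 to 277 CPM over the 12 types and was 272 ± 23.8 CPM in ciliary-like nuclei and 277 ± 19.2 CPM in rods. The part of Gigyf2 reads in the Kcnj13 counts was not tested. Markers of retinal pigment epithelium, the tissue Kir7.1 is known from, were found in at least 10% of ciliary-like nuclei for 2 of 9 genes. They summed to 1133 CPM in saline replicate 6, the library with the highest Kcnj13 there, against 143 and 205 CPM in saline replicates 1 and 2 and 0 and 121 CPM in IL-27 replicates 4 and 10, and their part in the Kcnj13 level was not tested.

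Kcnj2, a channel that sets the resting potential of many cells, was low in Muller glia, at 0.678 ± 0.245 CPM (14 UMIs), and had 1 UMI in astrocytes. Microglia held 15.6 ± 6.87 CPM (48 UMIs), horizontal cells 12.5 ± 5.41 CPM (66 UMIs) and endothelial nuclei 9.08 ± 10.2 CPM (6 UMIs), and these 3 did not differ beyond their spread. The highest level lay outside the named types, in an unnamed cluster of 751 nuclei led by Gm38505, Chat, Pde11a and Slc5a7. There Kcnj2 had 484 UMIs and 81.8 ± 14.3 CPM (66.5 to 108). Chat and Slc5a7 encode choline acetyltransferase and the choline transporter. The cluster was picked after its value was seen.

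Trpv4 was low everywhere. Muller glia held 6.73, 8.27 and 5.62 CPM in the saline libraries and 6.30, 7.56 and 7.48 CPM in IL-27 replicates 4, 5 and 10, from 147 UMIs. Rods held 0.276 ± 0.336 CPM, which is 6 UMIs. Microglia reached 10.2 ± 3.32 CPM from 32 UMIs, and endothelial nuclei 12.8 ± 27.9 CPM from 7 UMIs, 6 of them in IL-27 replicate 10. These 3 types did not differ beyond their spread, although Muller glia were above microglia in only 1 of 6 libraries. Thinned shares were 0.648% in Muller glia (0.438 to 0.924%), 0.952% in microglia (0.521 to 1.59%) and 0.00885% in rods (0.000224 to 0.0493%).

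Muller glia fell into states that differ by other genes. They are named here by a leading gene or gene group, as the Gpnmb state (2013 nuclei), the Efnb2 state (1334), the Hormad2 state (1169) and an interferon state led by Cxcl10, Iigp1 and other interferon-induced genes (121). Their proportions differed between libraries, and the Hormad2 state made up 1.61 to 50.5% of Muller nuclei. It held 34.4, 19.3 and 50.5% in saline replicates 1, 2 and 6, against 35.0, 5.77 and 1.61% in IL-27 replicates 4, 5 and 10. The part of these proportions in the group comparison of Muller glia was not tested. Aqp4 averaged 647 ± 50.4 CPM in the Gpnmb state and 397 ± 57.6 CPM in the Efnb2 state, and was higher in the former in 6 of 6 libraries, by 1.46- to 2.04-fold. The Hormad2 state lay between them in all 5 libraries that held enough of its nuclei (540 ± 33.0 CPM), and the interferon state was above all others in its 4 libraries (808 ± 120 CPM). Kcnj10 had another order, with 132 ± 14.9 CPM in the Hormad2 state, above the Gpnmb and Efnb2 states in 5 of 5 libraries, although its ratio of Gpnmb to Hormad2 state reached 0.999 in 1 of them. Over all libraries Kcnj10 averaged 97.4 CPM in the Gpnmb state and 88.8 CPM in the Efnb2 state. The interferon state held 71.3 ± 25.9 CPM of Kcnj10 in its 4 libraries, from 38 UMIs, below the Hormad2 state in 3 of 3 libraries that held both. Dtna stayed between 867 and 1220 CPM over the 4 states and was higher in the Hormad2 than in the Efnb2 state in 5 of 5 libraries.

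**Figure D2:**
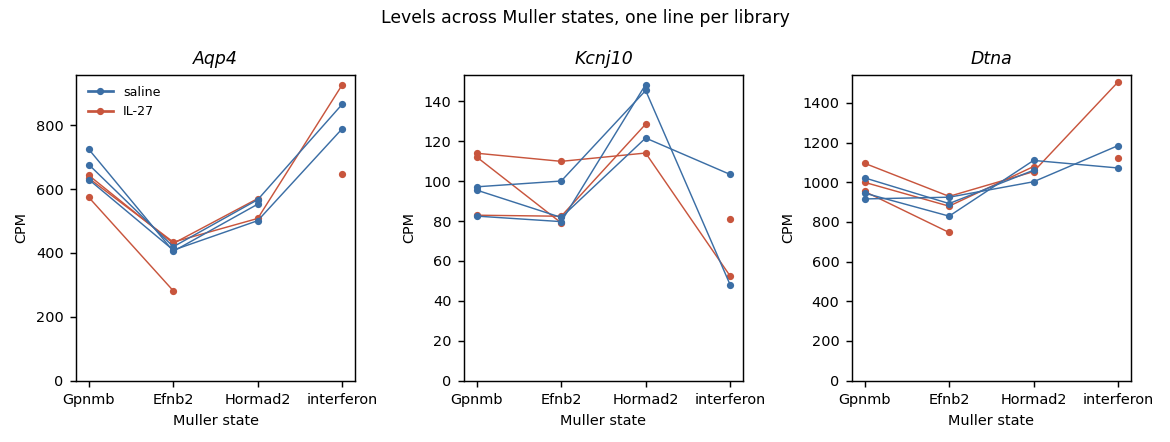
Level of Aqp4, Kcnj10 and Dtna (CPM) in 4 states of Muller glia, with a line for each library, blue for saline and red for IL-27; states with fewer than 10 nuclei in a library are not drawn. Aqp4 is lowest in the Efnb2 state in every library and Kcnj10 is highest in the Hormad2 state.

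The treatment was compared next, to ask whether IL-27 changed the level of any of these channels within a type. Counts per library and type were fitted with edgeR's quasi-likelihood test over all genes that passed a low-count filter, with Benjamini-Hochberg adjustment, after nuclei far from their type's median depth were set aside. In Muller glia, Aqp4 averaged 567 ± 28.9 CPM with saline and 546 ± 34.6 CPM with IL-27. The log2 fold change was -0.05 (SE 0.101, 95% interval -0.27 to 0.17, adjusted p = 0.994, edgeR), so the interval holds folds of 0.829 to 1.13. Kcnj10 averaged 107 ± 7.39 and 104 ± 6.97 CPM, with a log2 fold change of -0.05 (SE 0.107, -0.28 to 0.19). Dtna averaged 981 ± 32.2 and 988 ± 68.2 CPM, with a log2 fold change of 0.01 (SE 0.101, -0.21 to 0.23). For all 3 genes the libraries of the groups overlapped. The 9 Muller markers summed to 7894 to 8860 CPM in the saline and 7155 to 7840 CPM in the IL-27 libraries, and the part of that difference in these values was not tested. Kcnj13 (-0.09, SE 0.177) and Trpv4 (0.05, SE 0.254) overlapped likewise, and Kcnj2, Kcnj16 and Aqp1 did not pass the filter in Muller glia. Of 13463 genes tested in Muller glia, 5 were called, which is 0.0371%, and none of the 5 tested channel genes was among them. That count ranged from 0 without saline replicate 1 to 11 without IL-27 replicate 5, was 2 and 1 without saline replicates 2 and 6, and was 19 with DESeq2.

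**Figure D3:**
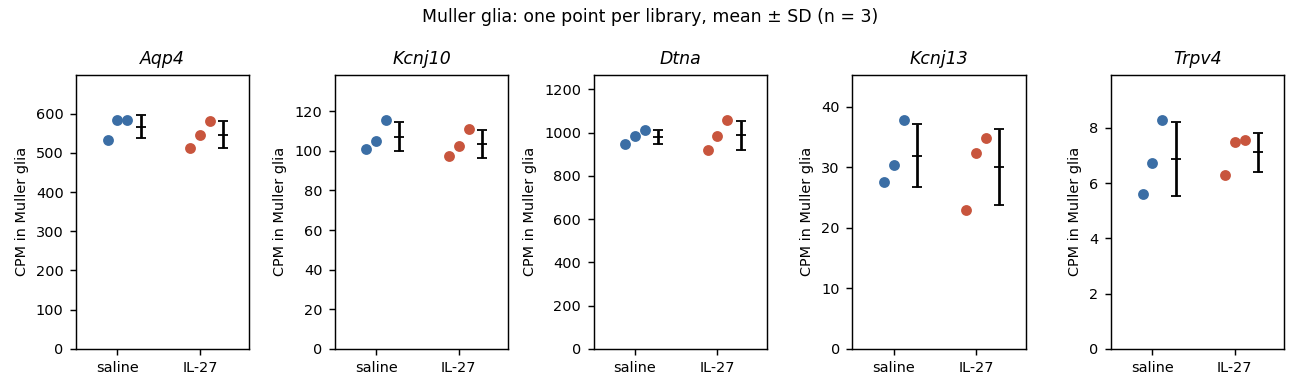
Level of the 5 genes that passed the filter in Muller glia (CPM, axes from 0), with a point for each of 3 saline (blue) and 3 IL-27 (red) libraries and bars for mean ± SD. The 2 groups overlap for each gene.

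Across 14 types and states, the 8 genes gave 50 tests, with none in endothelial or pericyte nuclei, where no member passed the filter. With edgeR 0 were called at an adjusted p under 0.05, and 0 had an unadjusted p under 0.05. DESeq2, as an alternative, also called 0 and gave 0 at that unadjusted level. Over all genes tested with edgeR, the share at an unadjusted p under 0.05 ran from 2.96% in amacrine cells to 5.04% in Muller glia. The 3 Muller states hold nuclei that Muller glia also hold, so the 50 tests are not independent. The share of all genes called at an adjusted p under 0.05 was also low. It was 0.0174% in the Gpnmb state, 0.0701% in the Efnb2 state, 0.144% in the Hormad2 state, 0.00755% in rods, 0.00613% in amacrine cells and 0.111% in pericytes. It was 0% in bipolar cells, cones, horizontal cells, ganglion cells, astrocytes, microglia and endothelial cells. Of the 50 tests, that of Dtna in bipolar cells gave the smallest unadjusted p, with 98.2 ± 6.67 CPM with saline and 109 ± 6.82 CPM with IL-27 (log2 fold change 0.17, 95% interval -0.01 to 0.35) and overlapping groups. The smallest adjusted p of the 50 was 0.983 (edgeR). In rods, Aqp1 averaged 29.7 ± 1.92 and 31.2 ± 2.72 CPM, a log2 fold change of 0.07 (-0.24 to 0.38). In astrocytes only Dtna passed the filter, with a log2 fold change of -0.03 (-0.54 to 0.47). Kcnj16 in astrocytes did not pass, and without the filter its log2 fold change was 1.64 (95% interval 0.30 to 2.97, adjusted p = 0.873, edgeR), on 26 UMIs. Trpv4 in the Efnb2 state did not pass either, and without the filter was -1.19 (-2.22 to -0.16, adjusted p = 0.885, edgeR), on 40 UMIs. In the Gpnmb state Trpv4 passed, at 0.53 (-0.24 to 1.30). Kcnj2 in ganglion cells was -1.37 without the filter (-2.63 to -0.12, adjusted p = 0.955, edgeR), on 31 UMIs. Within the states, Aqp4 differed by -0.13 in the Gpnmb state, -0.07 in the Efnb2 state and 0.02 in the Hormad2 state on the log2 scale, each interval including 0. Kcnj10 differed by 0.18, 0.08 and -0.12 in the same states, each interval again including 0.

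**Figure D4:**
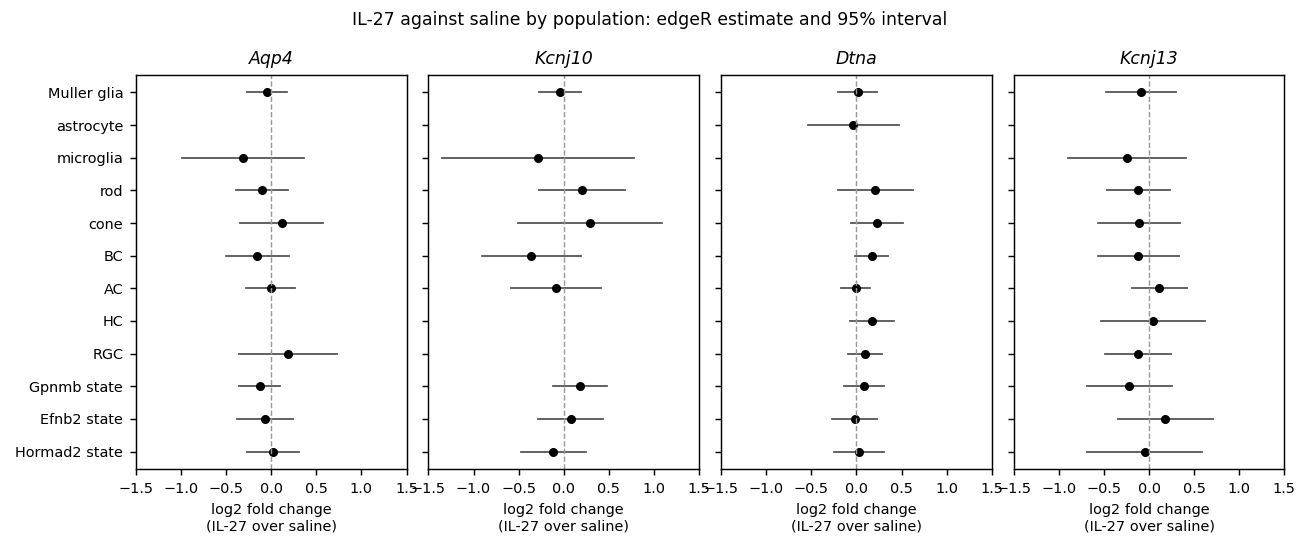
Log2 fold change of IL-27 over saline for Aqp4, Kcnj10, Dtna and Kcnj13 in 9 types and 3 Muller states, as edgeR's estimate with its 95% interval; a missing point did not pass the filter, and ciliary-like nuclei are not drawn. Every interval drawn includes 0.

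For members with at least 20 UMIs, 67 pairs of gene and population could be ordered in these 14 types and states. In 1 of them, Kcnj2 in microglia, the groups did not overlap. Over all genes with that many UMIs, the share that did not overlap ran from 8.56% in microglia to 12.5% in the Hormad2 state. Kcnj2 in microglia held 18.1, 19.5 and 26.2 CPM in saline replicates 1, 2 and 6, and 10.5, 8.05 and 11.2 CPM in IL-27 replicates 4, 5 and 10, from 48 UMIs. Each saline library was above each IL-27 library. The gene did not pass the filter. Without it, the log2 fold change was -1.10 (95% interval -2.07 to -0.13, adjusted p = 0.928, edgeR). Among 12080 genes with at least 20 UMIs in microglia, 8.56% did not overlap either.

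Ciliary-like nuclei, in which Kcnj13 had its highest level, were compared apart from these, over 3 saline libraries and IL-27 replicates 4 and 10, since replicate 5 held 6 of them. Aqp4 was 125, 141 and 108 CPM in saline replicates 1, 2 and 6, against 28.6 CPM (1 UMI) and 75.9 CPM (25 UMIs) in IL-27 replicates 4 and 10. Both IL-27 libraries lay below all saline libraries, and the log2 fold change was -0.89 (SE 0.338, 95% interval -1.64 to -0.15, adjusted p = 0.670, edgeR). It was -2.51 without IL-27 replicate 10, which leaves the library with 1 UMI, and -0.76 without IL-27 replicate 4. The interval over all 5 libraries leaves out 0, but the adjusted p did not pass, and 7.11% of all 7088 genes tested had an unadjusted p under 0.05. Dtna was higher in both IL-27 libraries (401 and 298 CPM) than in all saline libraries (232 to 295 CPM), with a log2 fold change of 0.22 (-0.34 to 0.77). Kcnj13 overlapped between groups, with a log2 fold change of -0.35 (-1.11 to 0.41). With edgeR 0% of genes were called, and of the 3 members with at least 20 UMIs, 2 did not overlap. Among 10973 genes with that many UMIs there, 27.8% did not overlap either. IL-27 replicate 4 held 12 of these nuclei, all in 1 subcluster. Sums over lists of markers differed between the groups there. The 8 ciliary epithelium markers summed to 1358 to 1552 CPM in the saline libraries and to 401 and 1154 CPM in IL-27 replicates 4 and 10. The 6 astrocyte markers summed to 31.5 to 47.2 CPM with saline, against 286 and 82.0 CPM. The 8 endothelial markers summed to 183 to 258 CPM with saline, against 1602 and 641 CPM. In both IL-27 libraries 6 of those 8 were at 0. Flt1, a marker of that list, is also among the leading genes of the Muller cluster. Muller glia summed on the same list to 1883 to 2031 CPM with saline and 1866 to 2106 CPM with IL-27. The part of these marker differences in the values of Aqp4, Dtna and Kcnj13 was not tested.

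Thinned shares of Muller nuclei gave the same comparison at a fixed depth, over 8 genes. For Aqp4 the share was 40.8 ± 1.92% with saline and 39.9 ± 1.51% with IL-27 (two-sided exact permutation test, p = 0.5). For Kcnj10 it was 11.0 ± 0.989% and 9.48 ± 0.522% (exact p = 0.1, adjusted over the 8 genes 0.4), where 0.1 is the smallest p that 3 against 3 libraries can give. Thinned to 2000 UMIs, the Kcnj10 difference was -0.644 points (exact p = 0.6). For Trpv4 the shares were 0.857 ± 0.283% and 0.403 ± 0.0999% (exact p = 0.1, adjusted 0.4), whereas its CPM was slightly higher with IL-27, so no order is read from it.

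A list of 53 related genes in 8 groups gives the surrounding pathway: other Kir and two-pore channels, other aquaporins, the dystrophin complex, sodium pumps, chloride cotransporters, volume-regulated channels with their partners, and bicarbonate handling. Levels of some of them in glia are given here without a test. Sntb1, the beta-1 syntrophin, reached 1215 ± 108 CPM in Muller glia and 1355 ± 132 CPM in astrocytes, against 103 ± 76.2 CPM in ciliary-like nuclei. The two-pore channel Kcnk1 held 96.9 ± 6.50 CPM in Muller glia, 30.5 ± 14.0 CPM in astrocytes and 91.1 ± 22.4 CPM in ciliary-like nuclei. Lrrc8c, a subunit of the volume-regulated anion channel, was 367 ± 54.7 CPM in Muller glia and 35.5 ± 24.6 CPM in astrocytes. Car14, a membrane carbonic anhydrase, was 191 ± 23.8 CPM in Muller glia and 14.9 ± 6.41 CPM in astrocytes.

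Astrocytes, with 20 UMIs of Aqp4 and 26 of Kcnj10, held other genes of the list that Muller glia held at low levels. The sodium bicarbonate cotransporter Slc4a4 was 2345 ± 257 CPM in astrocytes and 16.2 ± 4.34 CPM in Muller glia. The gap junction gene Gja1 was 132 ± 82.2 CPM in astrocytes, 402 ± 228 CPM in ciliary-like nuclei and 1.44 ± 0.921 CPM in Muller glia. Kcnj3, a G protein-gated Kir channel, was 339 ± 145 CPM in ciliary-like nuclei and 9.97 ± 2.76 CPM in Muller glia.

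**Figure D5:**
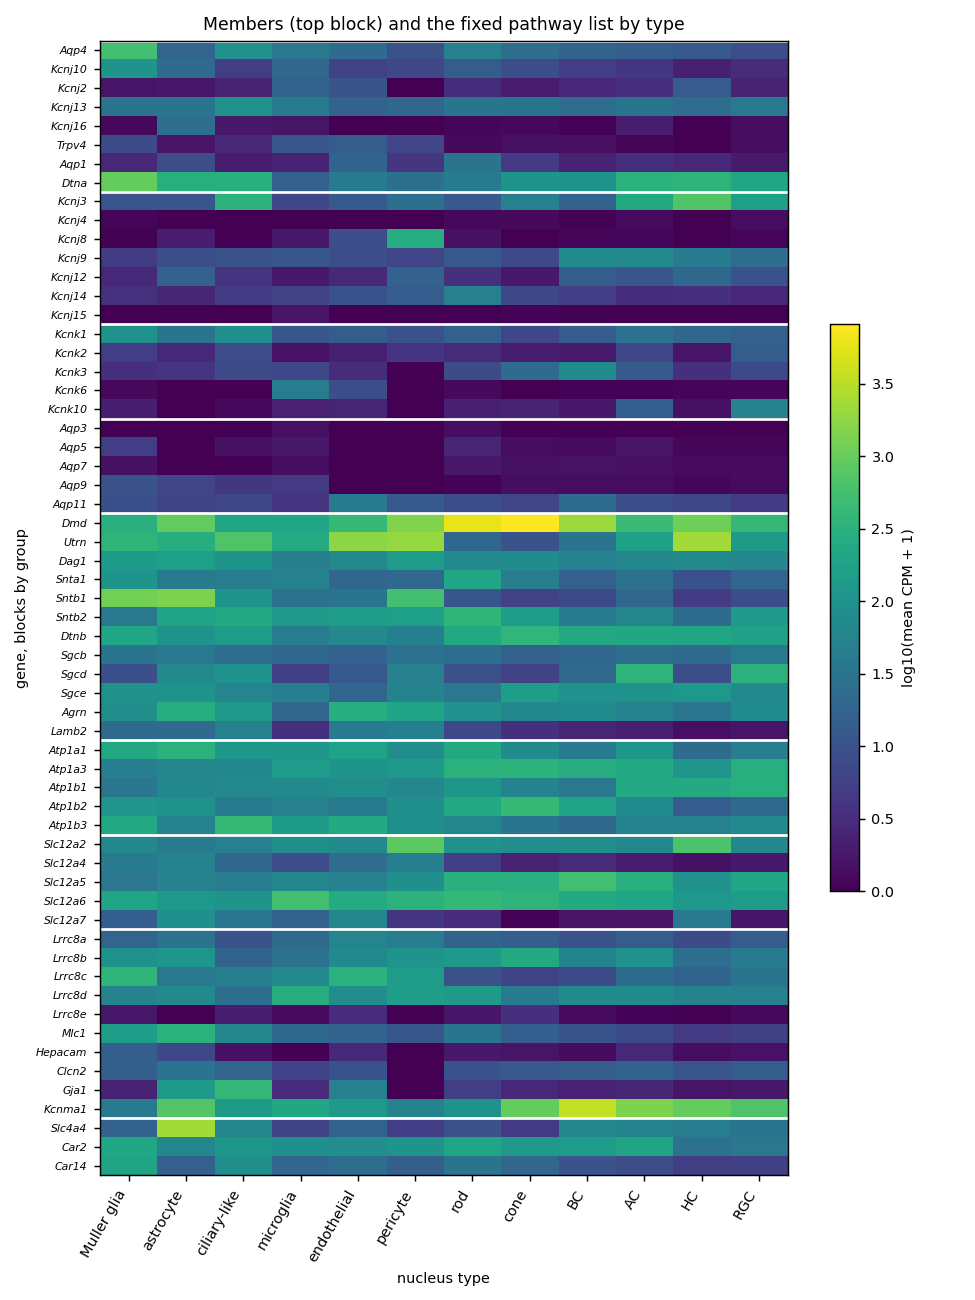
Mean level over libraries, as log10 of CPM + 1, of the 8 channel genes (top block) and of related genes (8 blocks) in 12 types of nuclei; colours are read along a row, since genes differ in length. Muller glia and astrocytes differ in Aqp4, Kcnj10, Gja1 and Slc4a4.

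Of the 53 genes, 41 were tested in Muller glia and 0 were called. Without adjustment, 4 passed 0.05 with edgeR, all of them lower with IL-27, as did 679 (5.04%) of the 13463 genes tested in either direction. The 4 were Car14, with 209 ± 13.8 CPM with saline and 174 ± 17.5 CPM with IL-27 (log2 fold change -0.27, 95% interval -0.50 to -0.03), Kcnj3 (-0.59), Kcnk2 (-0.90) and Aqp5 (-0.80), each with an adjusted p of 0.966 (edgeR). Kcnk2 and Aqp5 held under 6 CPM in either group. In astrocytes 23 were tested and 0 were called. In bipolar cells 40 were tested and 0 were called. Without the filter some genes of the list were called. Among them were Sntb1 (log2 fold change -1.08, adjusted p = 0.00109, edgeR) and Gja1 (-2.07, adjusted p = 0.0184, edgeR), both in bipolar cells.

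For the 6 members that reached 20 CPM on the mean of some type (not Kcnj2 and Trpv4), the genes whose levels over the 12 types were most alike were found by Pearson correlation of log2(CPM + 1) among 12857 genes, as a description over types that share libraries. For Aqp4 they were Gm3716 (r = 0.95), Car14 (0.94), Efhd1, Gpr37 and Chrdl1. For Kcnj10 they were Agt (0.96), Padi2, Cyp1b1, Tm7sf3 and Hormad2. Kcnj16 was closest to Pax2 (0.98), a marker used to name the astrocytes, and Dtna to Fam228b (0.95). Kcnj13 was closest to Msto1 (0.97) and Aqp1 to Zan (0.95). Aqp4 and Kcnj10 correlated with each other at 0.77 over the same 12 types.

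The promoters of 3 potassium channels with different patterns are shown, since Kcnj10, Kcnj16 and Kcnj13 peaked in Muller glia, astrocytes and ciliary-like nuclei respectively. Each is the 250 bases upstream of a RefSeq start site on GRCm38.p6, written 5′ to 3′ on the gene's strand, with matches to searched motifs in capitals. They lie at chr1:172340960-172341209 (Kcnj10, plus strand), chr11:110967783-110968032 (Kcnj16, plus strand, 1 of 4 start sites) and chr1:87394730-87394979 (Kcnj13, minus strand).
Kcnj10: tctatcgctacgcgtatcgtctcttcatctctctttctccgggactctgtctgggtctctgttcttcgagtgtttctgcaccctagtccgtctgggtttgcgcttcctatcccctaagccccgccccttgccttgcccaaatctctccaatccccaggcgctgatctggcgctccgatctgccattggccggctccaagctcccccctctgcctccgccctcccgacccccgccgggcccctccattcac
Kcnj16: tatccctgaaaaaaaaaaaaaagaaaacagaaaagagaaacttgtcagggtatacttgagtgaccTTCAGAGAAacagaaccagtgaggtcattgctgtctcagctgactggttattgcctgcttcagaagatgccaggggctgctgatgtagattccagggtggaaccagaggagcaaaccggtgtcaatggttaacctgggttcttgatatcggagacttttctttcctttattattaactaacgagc
Kcnj13: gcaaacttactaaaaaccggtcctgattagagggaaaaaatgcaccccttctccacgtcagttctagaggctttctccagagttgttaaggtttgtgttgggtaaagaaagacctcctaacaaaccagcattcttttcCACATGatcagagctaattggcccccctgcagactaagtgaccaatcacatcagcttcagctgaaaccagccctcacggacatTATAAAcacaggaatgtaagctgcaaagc

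The motifs were searched on both strands and were chosen with these sequences in view. They were TAATCC (OTX or CRX type), ACAATG (SOX type), TTCNNNGAA (STAT type), CACGTG (E-box), CATGTG (M-box core) and TATAAA. The Kcnj16 window holds TTCAGAGAA, a STAT-type match, 185 bases from the start, and the windows of its other 3 start sites hold none. The Kcnj13 window holds CACATG, which is CATGTG on the other strand, 112 bases from the start, and TATAAA 29 bases from it. The Kcnj10 window holds none of the 6. Over 32851 windows of this length from 27025 genes, TTCNNNGAA occurs in 7.02%, CATGTG in 12.3% and TATAAA in 12.4%. A match is a stretch of letters and not a measured binding site.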

How the data were processed

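Nuclei were isolated from rd10 retinas with the Chromium nuclei isolation kit and sequenced as 10x Genomics 3′ libraries. The deposited values are UMI counts per gene and barcode, which the authors made with Cell Ranger (version 9.0.1 in the submitters' notes, 8.0.1 in the matrix headers) without normalization. The authors went on to Seurat 5.2.1, which the deposited counts do not reflect. The genome build is not given in the sources used here.

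From these counts, nuclei with at least 500 UMIs, 200 genes and at most 5% mitochondrial UMIs were kept, and doublets were removed with Scrublet (scanpy 1.11.5, expected rate 8%). Nuclei were clustered without integration (2000 variable genes, 25 components, 20 neighbours, Louvain resolution 0.25) and clusters were named where at least 3 fixed markers were detected. The 132 nuclei of mixed Muller clusters and 2521 nuclei of unnamed clusters were left out of the types. For the levels of types and states and the comparison of groups (not for levels of single clusters or thinned shares), nuclei beyond 2 median absolute deviations of their type's log2 depth were set aside, and counts were summed per library and type. Tests used types with at least 10 nuclei in each library before that step, and levels used libraries with at least 10 after it. Ciliary-like nuclei were fitted over 5 libraries, which was added after seeing the data. The sums were tested with edgeR 4.0.16 (TMM, filterByExpr with a minimum count of 10, glmQLFTest, adjusted over all genes, threshold 0.05), and single shares with exact permutation tests. On simulated counts the fit recovered 189 of 200 genes changed by 1.5 on the log2 scale in Muller glia, with 13 false calls of 13278 genes, and 179 of 200 in astrocytes, with 10 false calls of 3451. Smaller changes were not simulated. All simulated libraries shared a mean profile, so differences in the mix of nuclei between libraries were left out. The 8 members are given in full, and likeness names the 5 nearest genes above 20 CPM in some type. The members and lists were chosen with earlier results of these data known. The levels of 1 gene of the related list are not reported here. Alternatives were DESeq2 1.42.0, no filter, other limits on nuclei, inclusion of ciliary-like or mixed nuclei and leaving out each library.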

Additional observations from a re-analysis of the deposited data

How the results depend on the processing

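No member was called under any of 15 alternatives, of which 2 (with ciliary-like or mixed nuclei) covered only the 5 tests in Muller glia and the others 37 to 107 tests. Of the latter, 8 of 107 tests of members without a filter (7.48%) had an unadjusted p under 0.05, against 3.93% of the tests of all genes. No paired analysis was possible because the groups share no replicate numbers. The count of genes called in Muller glia was not stable. It was 5 in the analysis given above, 19 with DESeq2, 102 without a filter and 2 without doublet removal, and ranged from 0 without saline replicate 1 to 11 without IL-27 replicate 5. It was 2 without saline replicate 2 and 1 without saline replicate 6. In ciliary-like nuclei, a fit added after seeing the data, the count was 0, with 2 by DESeq2 and 98 without a filter, and ranged from 0 without saline replicate 1 or 2 to 168 without IL-27 replicate 10 (6 without IL-27 replicate 4, 7 without saline replicate 6). Where 1 IL-27 library was left, it was assumed to vary like the saline libraries. Aqp4 there ranged from -2.51 without IL-27 replicate 10 to -0.763 without IL-27 replicate 4 (adjusted p 0.2498 to 0.9999, edgeR and DESeq2), Kcnj13 from -0.685 to -0.180 and Dtna from 0.0786 to 0.308. None of these shifts brought a call of a member, and their cause was not tested.

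Signs of the small log2 differences in Muller glia turned in places. With ciliary-like nuclei included, Aqp4 was 0.0961 and Kcnj10 0.129, while Kcnj13 (-0.378), Trpv4 (0.255) and Dtna (0.160) kept their sign. Without a filter, Dtna was -0.00174 in Muller glia and 0.0111 in astrocytes. Leaving out 1 library at a time, Aqp4 ranged from -0.108 to 0.0101, Kcnj10 from -0.112 to 0.0124, Kcnj13 from -0.187 to 0.0705, Trpv4 from -0.0642 to 0.193, Dtna from -0.0509 to 0.0755, and Dtna in astrocytes from -0.270 to 0.171. For thinned shares of Muller nuclei, the difference with ciliary-like nuclei was 2.53 points for Aqp4, 0.0537 for Kcnj10, -0.520 for Kcnj13 and 4.23 for Dtna. For Kcnj13 it was -0.316 at 2000 UMIs and -0.519 without thinning, and for Trpv4 it was 0.208 at 2000 UMIs. Leaving out 1 library gave -0.0874 to 0.588 for Kcnj13, -0.193 to 0.0419 for Aqp1 and -2.03 to 0.553 for Dtna. Kcnj2, Kcnj16 and Aqp1 fell below the filter in Muller glia. When ranked by thinned share, 7 of 8 members kept the type with the highest level. Trpv4 moved from endothelial nuclei, where it had 7 UMIs, to microglia. The part of depth in these outcomes was not tested.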

Other observations

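Some genes of the fixed list were higher in other types than in Muller glia, described here as mean ± SD over 6 libraries with no test. Dmd, which encodes dystrophin and its short retinal forms, was 8138 ± 494 CPM in cones and 6136 ± 453 CPM in rods, against 308 ± 20.6 CPM in Muller glia. Its relative Utrn (utrophin) had another pattern, with 2306 ± 137 CPM in horizontal cells, 355 ± 11.8 CPM in Muller glia and 19.9 ± 2.92 CPM in rods. Kcnj8, a subunit of ATP-sensitive potassium channels, was 270.4 ± 106 CPM in pericytes and had 1 UMI in Muller glia. Kcnj3 was 713 ± 148 CPM in horizontal cells, and the two-pore channel Kcnk6 was 43.2 ± 8.85 CPM in microglia and 0.262 ± 0.331 CPM in Muller glia. The calcium-activated potassium channel Kcnma1 was 3611 ± 128 CPM in bipolar cells and 42.0 ± 4.68 CPM in Muller glia.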
